A study of Macaca mulatta with 24 samples.

Results

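CpG-sparse highly methylated regions are stretches of 1 kb in which few CpGs were measured and nearly all of them were methylated. They were chosen by measured values. Every kilobase of chromosomes 1 to 20 (rheMac8 assembly) with 3 to 9 measured CpGs was kept when the mean of its CpGs, each averaged over all 24 animals, was at least 85%. This rule gave 35455 regions of the 100864 that held at least 3 measured CpGs, or 35.2%, and of the 74472 autosomal regions with 3 to 9 CpGs they were 47.6%. The regions held 163481 of the 841143 CpGs in the data.

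Female rhesus macaques gave biopsies of visceral fat from the omentum, a white adipose tissue, and their DNA was studied by reduced representation bisulfite sequencing (RRBS), in which an enzyme cutting at CCGG selects short fragments and bisulfite conversion then shows what share of reads carries a methylated cytosine at each CpG. The 24 animals formed 4 groups of 6. C received cholesterol implants and a control chow diet (animals 1 to 6), T received testosterone implants and chow (13 to 18), WSD received cholesterol implants and a western-style diet (19 to 24), and T+WSD received testosterone and the western-style diet (7 to 12). All 24 animals therefore carried an implant, for 3 years, and all were labelled as 4 years of age. The methods of the study give a higher age at biopsy. Implants were subcutaneous, diets were offered freely, and the study picked animals that represented the metabolic findings of their groups. The tissue was bulk tissue, in which a change in the mixture of cell types and a change of methylation within a cell type cannot be told apart. Its labelled identity was not checked against cell type markers here, since methylation data without gene positions hold none.

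In mammalian genomes a methyl group sits on the cytosine of most CpGs outside promoters and CpG islands, and maintenance methyltransferases copy it at each cell division. CpG islands, where CpGs lie close together, are usually free of it. Outside islands a high level is the usual state of gene bodies and intergenic DNA, and loss of methylation at such places can mark enhancers that become active in a cell type. No gene positions of the build were used here, so regions are given by coordinates only.

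The level of the regions lay near the top of the scale. The lowest was 85.0006%, the median 92.7% and the highest 99.4%, and 90% of the regions lay at or above 87.0%. By bands of level, 10078 regions lay at 85 to 90%, 15560 at 90 to 95% and 9817 at 95 to 100%. The level followed from the rule and is given as a description. Just inside the threshold were chr12:477001-478000 (85.0006%) and chr12:115175001-115176000 (85.0007%), and just outside were chr12:55780001-55781000 (84.9997%) and chr16:30144001-30145000 (84.9995%), so the threshold does not follow a gap in the distribution. Regions with 10 or more CpGs had another distribution, with 49.9% of them under 5% methylation against 10.1% of regions with 3 to 9 CpGs.

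**Figure D1:**
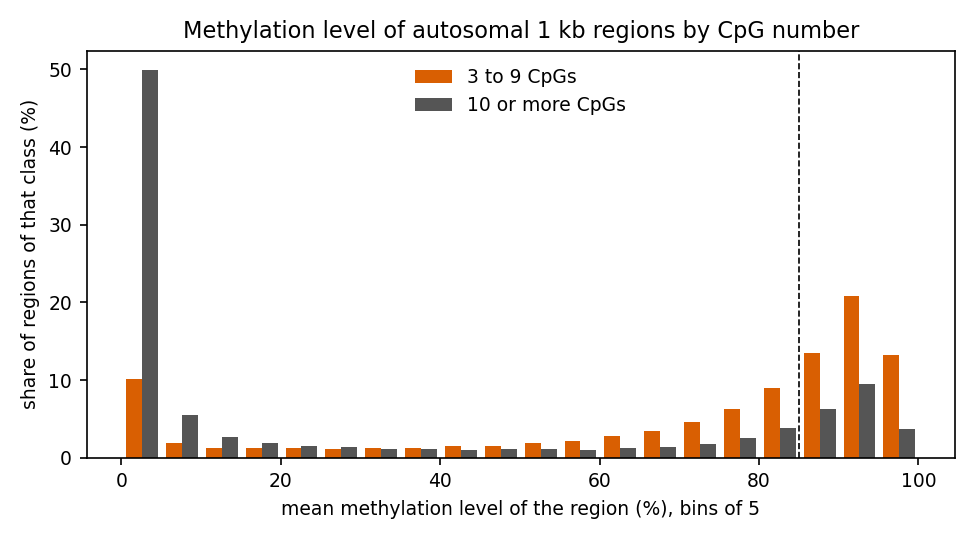
Share of autosomal 1 kb regions (vertical axis, percent of the regions of that class) by mean methylation level (horizontal axis, percent, in bins of 5) for regions with 3 to 9 measured CpGs (orange) and with 10 or more (grey), with the 85% threshold as a dashed line. The bin of 90 to 95% held 20.9% of the regions with few CpGs and 9.49% of those with many, while the lowest bin held 49.9% of the latter.

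The word sparse describes what was measured and not the sequence. Most regions had few CpGs, 11982 of them 3, 8875 of them 4 and 1333 of them 9. These CpGs lay close together. From the first to the last measured CpG the median distance was 65 bp, it was under 100 bp in 67.4% of the regions and under 300 bp in 92.5%. A region is thus a fragment of the kilobase and the rest of the kilobase was not measured. In 65.7% of the regions neither adjacent kilobase had a measured CpG, and 11.8% of the regions lay next to another region of the same class. Highly methylated regions with 10 or more CpGs, of which there were 3883, spanned a median of 334 bp.

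Few regions lay side by side. Of the runs of neighbouring members, 31258 were single regions, 1819 were pairs, and 4 runs of 5 were the longest. The 4 longest runs were chr16:911001-916000, chr3:2962001-2967000, chr5:1319001-1324000 and chr9:125931001-125936000, with 21, 23, 18 and 26 CpGs. Their mean levels were 90.1%, 93.6%, 92.7% and 94.0%. In the run on chromosome 16 C had a level of 90.5% ± 1.65 (SD, n = 6) and T+WSD one of 88.9% ± 2.07, and on chromosome 3 they had 93.8% ± 1.84 and 92.8% ± 0.93. In the run on chromosome 5 T+WSD lay higher, at 92.5% ± 1.77 against 91.1% ± 2.84 for C, and in the run on chromosome 9 C had 94.4% ± 0.493 and T+WSD 94.4% ± 1.62. The regions were found on every autosome, and their share of the autosomal regions was lowest on chromosome 19 (29.8%) and highest on chromosome 2 (44.6%). Within 2 Mb of the ends of the measured chromosomes 30.5% of regions belonged to the class, and elsewhere 38.7%.

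A high mean can hide a CpG that is not methylated. The median level of the single CpGs was 94.3%, and 88.5% of them were at or above 85%. However, 237 CpGs in 237 different regions lay under 50%, and 9 lay under 10%. The lowest of these, at chr11:11806339-11806339, had a mean of 0.412% and a highest value of 5% among the C animals, in a region whose other 8 CpGs carried the level above the threshold. Within a region the highest and lowest CpG differed by a median of 8.49 points.

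Some CpGs showed steps instead of a continuous spread, defined as a gap of at least 25 points between 2 neighbouring animals after sorting. There were 8045 of them, or 4.92% of the CpGs in the regions against 3.92% of all CpGs, and they lay in 7039 regions. In 5254 of them a single animal lay below the gap. In 2528 the lowest animal was under 10%.

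Variation between animals was small and differed with the number of CpGs and with the level. The regions were selected for a level near 100%, and that limit bounds their spread. The size of the spread and its fall at higher levels are therefore given as a description. Over the 12828 regions with every CpG measured in every animal, the SD between the 24 animals had a median of 3.17 points. With 3 CpGs the median SD was 3.57 points and with 9 CpGs 2.60 points. At a level of 85 to 90% it was 4.49 points, at 90 to 95% 3.22 points and at 95 to 100% 2.08 points. Highly methylated regions with 10 or more CpGs had a median SD of 2.17 points on the same selection. Depth per CpG is not known from the percentages, so the part of this spread that comes from counting reads is not known either.

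The steadiest regions varied little across all animals. At chr13:107824001-107825000, with 6 CpGs, the 24 animals lay between 96.1% and 97.9%, and at chr1:92253001-92254000, also with 6 CpGs, between 96.9% and 99.0%. At chr17:54709001-54710000 9 CpGs gave values of 95.8% to 98.3%. The 4 groups overlapped in all 3 regions. The largest spread was found where CpGs were missing in some animals. At chr10:58564001-58565000 the SD was 37.3 points over 22 animals and values ran from 0% to 100%. This region held 3 CpGs. Of these, 2 had mean levels of 97.6% and 98.8%, and the third had a mean of 74.0% with a gap of 69.4 points between neighbouring animals. An animal in which only the third was measured carried its value for the whole region. At chr1:222497001-222498000, chr2:81903001-81904000 and chr18:1101001-1102000 the SD was 32.7, 31.6 and 30.6 points, again with 3 CpGs, values from 0% and at least 1 CpG with a step. Among regions measured in full, a choice made after the values were seen, the largest SD was 17.7 points at chr11:75191001-75192000, where 3 of the 5 CpGs showed steps. C ran from 35.2% to 96.3%, T from 45.3% to 95%, WSD from 87.1% to 96.8% and T+WSD from 92.1% to 98.4%.

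Averaged over the 12828 fully measured regions, methylation was highest in C and lowest in T+WSD. The C animals had a lowest value of 92.2%, a median of 92.5% and a highest of 93.4%. The T animals ran from 91.7% through a median of 92.1% to 92.5%. The WSD animals ran from 91.7% through 92.4% to 92.6%, and the T+WSD animals from 91.4% through 91.9% to 92.1%. Every T+WSD animal lay below every C animal, while T and WSD overlapped with C.

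As means, C had 92.67% ± 0.45 (SD, n = 6), T 92.09% ± 0.28, WSD 92.29% ± 0.35 and T+WSD 91.82% ± 0.29. The difference from C was -0.57 points for T (SE 0.22), -0.38 points for WSD (SE 0.23) and -0.85 points for T+WSD (SE 0.22). No p-value is given, since the regions were selected by their level. The 3 comparisons share the C animals, and 1 of these, C 1, had the highest mean. Without C 1 the differences were -0.42, -0.22 and -0.69 points. Over all values, including those of regions with missing CpGs, the difference of T+WSD from C was -0.87 points.

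**Figure D2:**
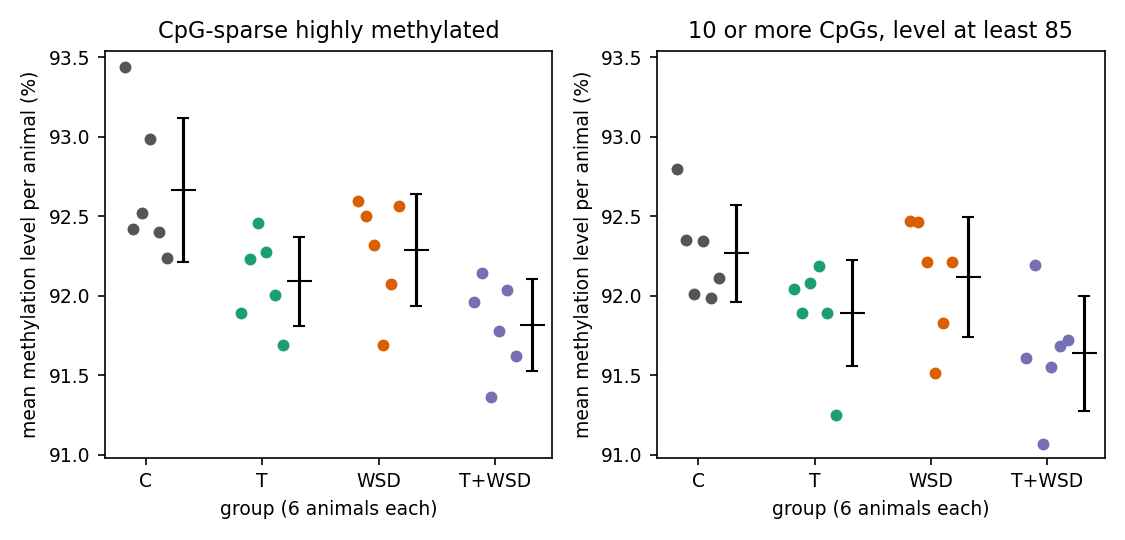
Mean methylation level per animal (vertical axis, percent) in the 4 groups (horizontal axis, 6 animals each), for the CpG-sparse highly methylated regions (left) and for highly methylated regions with 10 or more CpGs (right); each dot is 1 animal, and the black bar is the mean with its SD. In the left panel every T+WSD dot lies below every C dot, and in the right panel the groups overlap.

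Highly methylated regions with more CpGs showed the same direction. In the 908 fully measured regions with 10 or more CpGs, T+WSD was 0.63 points lower than C (SE 0.19), with overlap. In regions with 3 to 9 CpGs and a level under 85% T+WSD was 1.03 points lower (SE 0.27), with overlap, and T was 1.03 points lower (SE 0.28) without overlap. In unmethylated regions of 10 or more CpGs T+WSD was 0.13 points higher (SE 0.13), with overlap. Whether the regions described here differ from these classes was not tested.

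Within the class the difference was larger where the level was lower. Among regions at 85 to 90% T+WSD was 1.30 points lower than C, at 90 to 95% 0.89 points lower and at 95 to 100% 0.29 points lower. In the last band the 2 groups overlapped. The bands were cut on a level that includes the T+WSD animals, and the spread between animals also fell toward 100%. The order of the bands is therefore given as a description. By number of CpGs the difference lay between -0.92 points with 3 CpGs and -0.73 points with 6, without overlap at any number from 3 to 9. Regions with a CpG that showed steps differed by -0.78 points and those without by -0.86 points, both without overlap. By chromosome T+WSD was lower than C on 20 of 20, from -1.02 points on chromosome 5 to -0.64 points on chromosome 6, and the groups did not overlap on 13. T and WSD were also lower on 20 of 20 chromosomes, with overlap on each. The chromosomes come from the same animals and are not independent of each other.

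**Figure D3:**
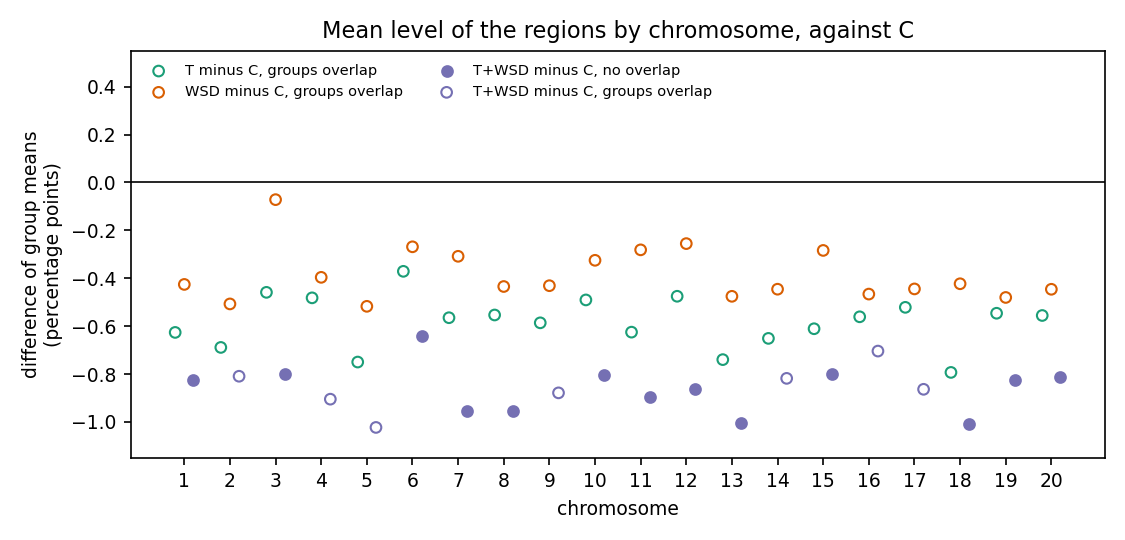
Difference from C in the mean level of fully measured regions (vertical axis, percentage points) on each chromosome (horizontal axis) for T (green), WSD (orange) and T+WSD (purple); filled dots mark groups that do not overlap with C and open dots those that do. All dots lie below 0, and only T+WSD has filled dots, on 13 chromosomes.

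One animal, T 16, stood apart in its share of values at exactly 100%, which was 47.8%, where the other T animals had 25.2% to 33.2%. It also lacked 14.01% of the CpG values in these regions, the most of any animal, followed by T 13 with 12.9% and WSD 22 with 11.8%. In C 2.31% to 9.72% of values were missing, T began at 3.08% and WSD at 3.85%, and T+WSD had 2.47% to 7.01%. Without T 16 the mean difference of T from C was -0.61 points. Without it, 0 regions passed the test described next for T and 7 for T+WSD.

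Region by region, little passed a test across all 100864 regions (limma, Benjamini-Hochberg adjusted p under 0.05 and a difference of more than 10 points). For T against C 0 of the 35455 regions passed, against a background of 0.00793% of all regions, and 2313 had an unadjusted p under 0.05 (background 6.72%). For WSD against C 0 passed (background 0.00397%), and 2294 had an unadjusted p under 0.05 (background 7.44%). For T+WSD against C 5 passed, all lower, against a background of 0.206% in either direction and 0.127% for lower levels. An unadjusted p under 0.05 was found for 2760 (background 10.9%). A difference of over 10 points in T+WSD was seen in 264 of the regions, or 0.745%, against a background of 5.63%, and 186 of these were lower and 78 higher. The regions were selected for a high level, which bounds their spread and leaves little room to rise. No conclusion is therefore drawn from these shares against the background, or from the direction of these regions and of the 5 that passed. At any size of difference 9 of the 35455 regions had an adjusted p under 0.05 (background 0.217%). The share of regions lower in T+WSD was 64.0%, and over all regions it was 58.7%, so the balance of single regions leaned the same way as the mean.

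The 5 regions that passed in T+WSD were higher in C, and the differences ran from -15.1 to -10.8 points. The first was chr7:55005001-55006000 with 9 CpGs over 205 bp. C ran from 89.9% through a median of 92.7% to 95.5%, T from 81.5% through 90.5% to 92.5%, WSD from 82.5% through 88.5% to 98.7% and T+WSD from 67.9% through 77.4% to 87.5%. T+WSD did not overlap with C but did with T and WSD. The difference was -15.1 points, with an adjusted p of 0.0415. Among its CpGs, C had 97.4% ± 4.44 and T+WSD 70.3% ± 14.5 at position 55005341, and 98.8% ± 2.91 and 76.2% ± 11.6 at 55005401, whereas at 55005282 the means were 90.4% and 89.3%. The T and WSD differences were -3.80 and -3.86 points.

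At chr4:171388001-171389000, with 3 CpGs over 65 bp, C ran from 81.7% through 90.7% to 96.3% and T+WSD from 63.6% through 75.8% to 86.8%. The groups overlapped slightly. T lay at 90.8% ± 4.74 and WSD at 89.8% ± 3.31, close to the 90.8% ± 5.18 of C, and the T+WSD difference was -15.0 points (adjusted p = 0.0473). All 3 CpGs were lower in T+WSD, with means of 77.7%, 73.3% and 76.4%.

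At chr10:61633001-61634000, with 7 CpGs over 67 bp, C ran from 79.6% through 93.8% to 98.4% and T+WSD from 68.7% through 78.2% to 81.6%. The groups overlapped. The difference of -15.0 points (adjusted p = 0.0489) lay mostly in 3 of the 7 CpGs. The CpG at 61633541 had 0% to 100% in C and 0% to 51.7% in T+WSD, with a median of 82.1% against 0%. At 61633552 C had 98.3% ± 2.07 and T+WSD 72.7% ± 24.8, and at 61633574 the values were 91.4% ± 4.04 and 69.7% ± 25.2. Of these, 61633541 and 61633552 showed steps of 40.1 and 26.5 points. Without CpGs that showed steps, the 5 remaining CpGs of the region differed by -5.21 points and the region did not pass (adjusted p = 0.242), while the other 4 regions did, so that the count for T+WSD was 4.

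At chr19:1438001-1439000, with 4 CpGs, C ran from 81.8% through 89.1% to 93.3% and T+WSD from 58.5% through 75.6% to 82.9%, with overlap. The difference was -14.8 points (adjusted p = 0.0442). Missing values bear on it, since 2 of the 4 CpGs were measured in 4 T+WSD animals only. With each missing value replaced by the mean of its CpG, an alternative chosen after seeing the data, the difference was -10.2 points. At chr5:98148001-98149000, with 4 CpGs, which lay outside the 4 largest and is named because the count is small, C ran from 88.0% through 93.1% to 95.6% and T+WSD from 78.9% through 81.2% to 88.1%. The 2 groups overlapped only at their edges. Its difference of -10.8 points (adjusted p = 0.0303) became -9.94 points with the missing values replaced, under the threshold of 10.

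**Figure D4:**
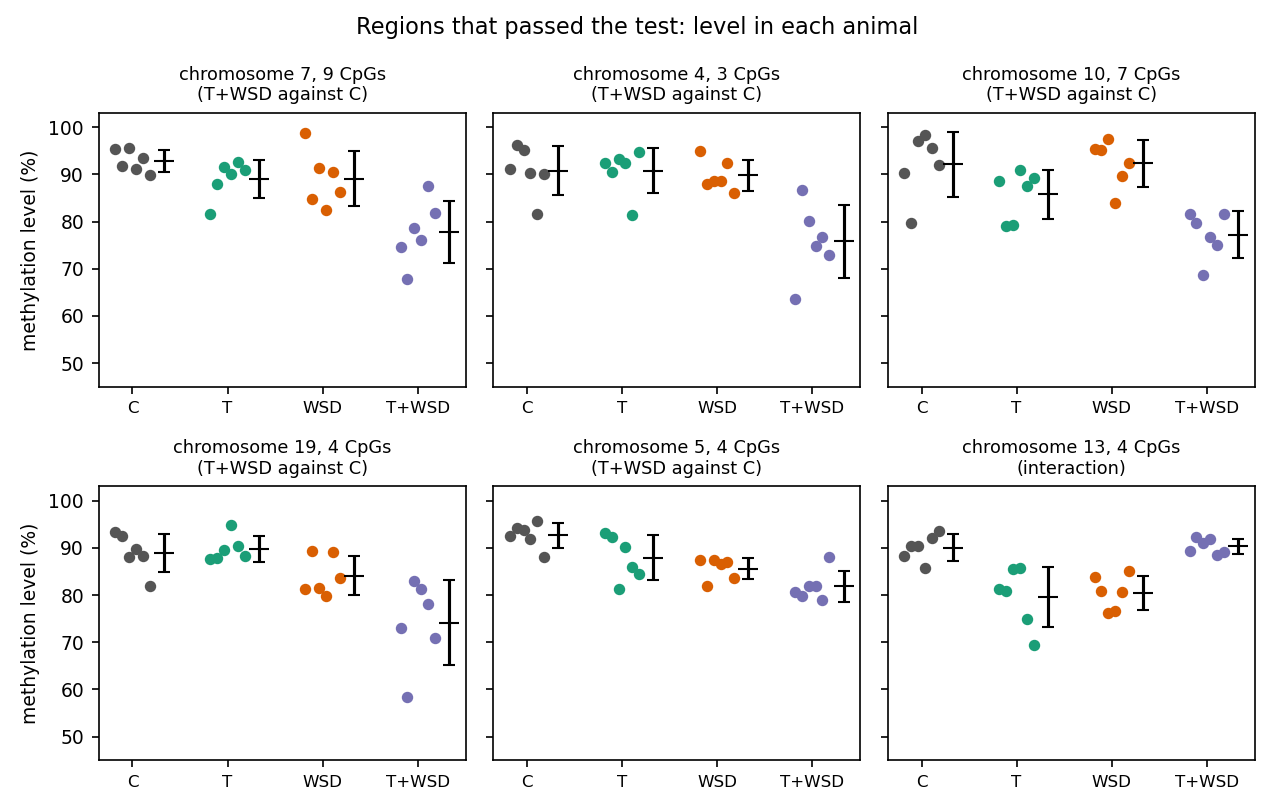
Methylation level (vertical axis, percent) of the 6 regions that passed a test in each animal (dots) by group (horizontal axis), with the group mean and SD as black bars. In the first 5 panels T+WSD lies lowest, and in the chromosome 13 panel T and WSD lie lower while C and T+WSD lie together.

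None of these 5 calls held in every fit that left out 1 animal. Their direction held in 24 of 24 fits, which is no support for them. Leaving out a T or WSD animal cannot change the T+WSD minus C difference, and the regions were selected for a large difference. The chromosome 7 region passed in 12 of 24 and failed without C 1, 3, 4 or 5, T+WSD 7, 8, 9, 10 or 12, T 17 or 18 or WSD 23. The chromosome 4 region passed in 6 of 24, those without C 5, T 16, T 17, WSD 19, 21 or 24. The chromosome 10 region passed in 5, those without C 2, T 16, WSD 19, 21 or 22. The chromosome 19 region passed in 9, those without C 6, T+WSD 11, T 13, T 16 or WSD 19, 20, 21, 22 or 24, and the chromosome 5 region in 18, failing without C 1, C 3, C 5 or T+WSD 8, 9 or 10. The highest adjusted p in these fits was 0.120, 0.120, 0.126, 0.127 and 0.0913 respectively. With T+WSD and C alone in the fit 0 regions passed, as on the log2 ratio scale. At a level of at least 90% 0 passed as well, but this was fixed in advance. The 5 regions had levels of 85.6% to 87.2% and are not members there.

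No region passed for T or WSD alone, and the 3 with the smallest p in each are given as not passing. For T these were chr9:29728001-29729000, chr14:17078001-17079000 and chr3:67147001-67148000. At the first, C lay between 97.6% and 98.4% and T between 90.4% and 95.5%, without overlap, a difference of -4.92 points (adjusted p = 0.0458) that is under the 10 required. At the second, T was 77.4% ± 8.81 and C 92.8% ± 2.88 (-15.5 points, adjusted p = 0.0975), with 2 CpGs that showed steps. At the third, T was 99.3% ± 0.90 and C 94.98% ± 1.59 (4.30 points, adjusted p = 0.252). For WSD they were chr16:3602001-3603000, where WSD was 93.9% ± 3.05 and C 99.2% ± 0.61 (-5.29 points, adjusted p = 0.0938), chr18:69631001-69632000, where WSD was 88.4% ± 2.62 and C 97.8% ± 1.99 (-9.42 points, adjusted p = 0.0938), and chr19:48016001-48017000, where WSD was 87.6% ± 4.21 and C 96.2% ± 1.16 (-8.67 points, adjusted p = 0.106). At the last of these T+WSD was 86.7% ± 3.13, a difference from C of -9.54 points with an adjusted p of 0.0224, and T was 92.9% ± 2.82.

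The question whether testosterone and diet act together differently from the sum of their single differences was addressed by the interaction, the difference made by T under the western-style diet minus that under chow. Of the regions 1 passed, against a background of 0.0178%, and 2058 had an unadjusted p under 0.05 (background 5.61%). At chr13:98115001-98116000, with 4 CpGs over 35 bp, C ran from 85.6% through 90.4% to 93.6%, T from 69.3% through 81.0% to 85.7%, WSD from 76.1% through 80.8% to 85% and T+WSD from 88.5% through 90.2% to 92.2%. C and T+WSD lay together and T and WSD lay lower. The interaction was 20.3 points with an adjusted p of 0.0103, and the region passed in 24 of 24 fits that left out 1 animal. Its level over all animals was 85.1%, just over the limit of 85% that sets the class, so at a limit of 90% it is not a member and 0 regions passed. With the region borders moved by 500 bp 0 regions passed as well. This contrast sets C and T+WSD against T and WSD, which is also animals 1 to 12 against animals 13 to 24. The labels name no batch. The interaction and a batch that followed the animal numbers cannot be told apart. T against C and WSD against C cross the same line, while T+WSD against C lies within animals 1 to 12.

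The chromosome 13 difference was largest at the end of the measured stretch. At position 98115973 C had 81.4% ± 6.14 and T+WSD 84.2% ± 3.20, against 48.4% ± 12.7 for T and 37.0% ± 13.9 for WSD, and its 12 C and T+WSD values lay above all 12 others. At the CpG 4 bp before it T had 83.7% ± 4.07 and WSD 91.3% ± 3.83, against means of 95.1% for C and 94.3% for T+WSD. The other 2 CpGs had group means of 86.4% to 99.3%, and there the means of animals 1 to 12 minus those of animals 13 to 24 were -4.68 and -1.996 points. The next 2 regions by p did not pass. At chr1:26201001-26202000 the interaction was 11.2 points (adjusted p = 0.0835), and at chr13:25030001-25031000 it was -10.7 points (adjusted p = 0.158).

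**Figure D5:**
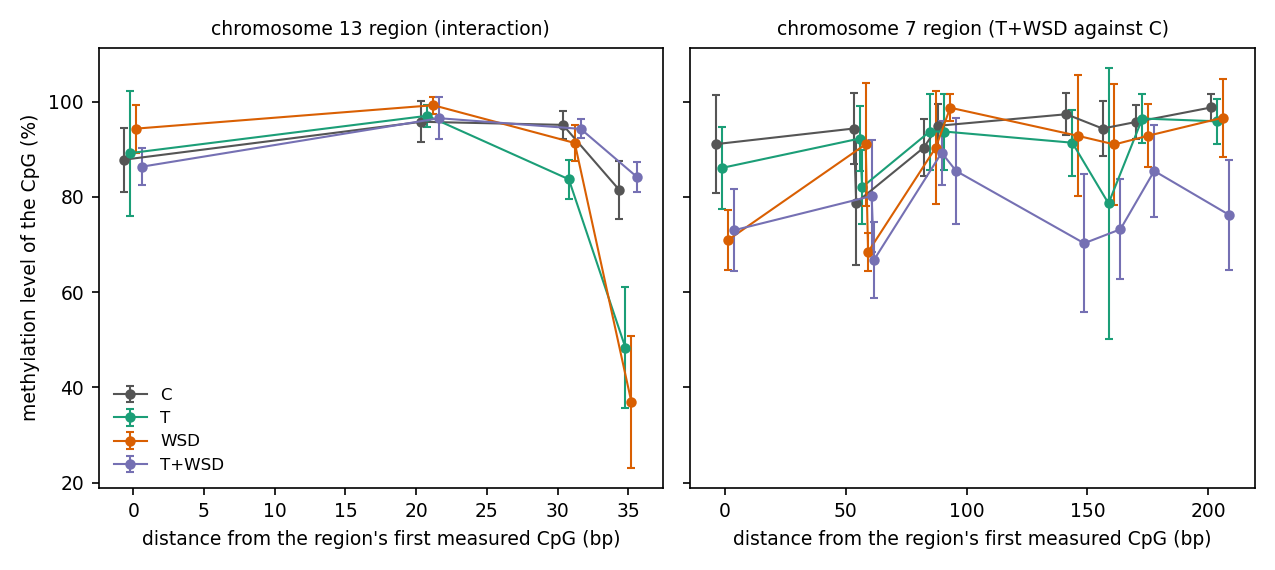
Methylation level (vertical axis, percent) of each CpG in the chromosome 13 region (left) and the chromosome 7 region (right) by distance in bp from the first measured CpG, as group means with SD (bars can pass 100%) and with points of the 4 groups set slightly apart. On the left T and WSD lie far below the other groups at the last CpG and T also lies lower at the CpG before it, and on the right T+WSD lies below C at every CpG.

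Single CpGs were also tested, all 841143 together. For T 2 CpGs in these regions passed (background 0.00559%), for WSD 4 (background 0.00559%), for T+WSD 2 (background 0.0069%) and for the interaction 15 (background 0.0174%). Of the interaction CpGs 12 were positive (background 0.0139%) and 3 negative (background 0.00345%). Those that passed against C were all lower than in C. Over all CpGs, 2 of the 47 that passed for T were higher, 5 of 47 for WSD and 27 of 58 for T+WSD. CpGs in regions selected for a high level have little room to rise, so no conclusion is drawn from their direction. Both of the CpGs that passed for T and 3 of the 4 for WSD were among the 15 of the interaction, and in each of these CpGs all animals 1 to 12 lay apart from all animals 13 to 24. They are therefore not separate from the interaction, and here too a batch that followed the animal numbers cannot be told apart. The CpGs named here were chosen after their values were seen.

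In 4 of the 15 interaction CpGs animals 1 to 12 and animals 13 to 24 did not overlap. The 15 were selected by the contrast between these 2 sets of animals, and the share without overlap among all CpGs is not given here. No conclusion is therefore drawn from this count. The CpG at chr1:26201119-26201119 was at 84.7% ± 5.47 in C and 81.5% ± 6.39 in T+WSD, and at 49.5% ± 11.1 in T and 47.3% ± 12.1 in WSD (interaction 69.5 points, adjusted p = 0.000141). The other 6 CpGs of its region, the nearest 19 bp away, differed between the 2 sets of animals by -0.71 to 2.68 points. The CpG at position 40343356 of chromosome 3 was at 99.3% ± 1.78 in C and 97.3% ± 2.98 in T+WSD, and at 78.8% ± 5.48 (n = 5) in T and 78.1% ± 8.18 (n = 4) in WSD (39.7 points, adjusted p = 0.000512). The other 2 were the chromosome 13 CpG above (80.2 points, adjusted p = 4.66e-05) and position 30950676 of chromosome 1, where all 4 measured C animals were at 100% and WSD was 82.9% ± 12.3 (26.2 points, adjusted p = 0.00704). One of the 15, at position 40764724 of chromosome 3, showed a step of 46.5 points between neighbouring animals.

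The 2 CpGs that passed in T+WSD against C lay at position 126500172 of chromosome 14, where all 6 C animals were at 100% and the 5 measured T+WSD animals ran from 74.2% to 92.7% (adjusted p = 0.0364), and at position 52180158 of chromosome 7. At the latter C ran from 92.0% through 93.6% to 97.8% and T+WSD from 79.8% through 83.4% to 85.7%, a difference of -11.2 points (adjusted p = 0.022), with T at 92.3% ± 1.57 and WSD at 92.0% ± 3.00. The groups did not overlap at either CpG. The CpG that passed in WSD and not in the interaction, at position 39306606 of chromosome 6, went from 85.7% ± 5.11 (C) to 63.0% ± 5.08 (WSD), while T had 78.3% ± 6.26 and T+WSD 69.8% ± 6.82 (-22.7 points, adjusted p = 0.0376).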

How the data were processed

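Omental adipose DNA of 24 animals was analysed by RRBS. Per the labels, reads were trimmed with Trim Galore 0.4.2, checked with FastQC 0.11.5 and aligned to rheMac8 with Bismark 0.16.1. The authors deposited percent methylation per CpG and animal, kept where at least 10 reads covered the CpG in 4 or more of the 6 animals of each group. Read counts are not in this table, so depth is unknown and no interval from reads is given. All 24 columns matched samples and 0 were left unmapped. Regions of 1000 bp were the mean of the CpGs measured in that animal. Values were arcsine square root transformed and fitted with limma 3.58.1 in R 4.3.3 with 4 group means over all 24 animals, and p-values were adjusted by the Benjamini-Hochberg method over all 100864 regions or 841143 CpGs. Differences are in percentage points. Self-tests on simulated data with planted changes were run. Regions named were, per comparison, up to 4 passing regions with the largest difference in each direction, or the 3 smallest p where under 3 passed, plus the 4 largest and 3 smallest SD, the 2 on each side of the threshold and the longest runs. The members and lists were chosen with earlier results of these data known. Gene and cell type lists were not used here, since no gene positions of the build were used. Animals are the replicates. The p-values weigh a difference of group means against the spread between animals within groups, which limma moderates over all regions or CpGs.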

Additional observations from a re-analysis of the deposited data

Results flagged for a closer look

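The interaction tests whether the difference made by T differs between the diets, and it passed for 1 region and for some single CpGs. The interaction at chr13:98115001-98116000 was 20.3 points, and 15 single CpGs passed for the interaction. These were 0.00282% of the regions of the class, against 0.0178% of all regions, and 0.00918% of their CpGs, against 0.0174% of all CpGs. The counts therefore show no excess in the class, but the high level that selects it also limits the size of differences there. The contrast sets animals 1 to 12 against 13 to 24. The 2 sets of animals did not overlap in 4 of the 15 CpGs, and they overlapped in the others and, by less than 1 point, in the region. Since the contrast selected these CpGs and the share among all CpGs is not given, no conclusion is drawn from the 4.

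In groups of 4 to 6 measured animals the highest or lowest value was set apart from the rest in 8 of 88 groups of values examined. About 4.4 would be set apart by chance if values were independent and followed a normal distribution. These groups share animals, their values are bounded, and most come from regions named for their test results. No conclusion is therefore drawn from the count. In T 16, 47.8% of values were at 100% (next animal 33.2%) and 1.63% were under 50% (next 1.01%). In C 2, the region chr14:17078001-17079000 was at 87.2% (next 92.6%) and chr3:67147001-67148000 at 91.8% (next 95.2%). In C 1, chr8:7070001-7071000 was at 91.5% (next 95.9%). In T 16, chr16:3602001-3603000 was at 94.6% (next 97.5%), in T 17 chr4:171388001-171389000 was at 81.5% (next 90.5%), and in T+WSD 12 chr5:98148001-98149000 was at 88.1% (next 82.0%).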

How the results depend on the processing

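The mean difference from C kept its sign for T, WSD and T+WSD under all alternatives run (all values, CpGs with steps left out, strands averaged, borders moved by 500 bp, level of at least 80 or 90). Leaving out 1 animal gave -0.66 to -0.42 points for T, -0.46 to -0.22 for WSD and -0.93 to -0.69 for T+WSD. Counts of passing regions were small and moved. At a level of at least 80 or 90 the same fit was only counted over other members. None of the regions that passed reaches 90%, so the counts of 0 at that level were fixed by membership. For T+WSD the count was 5, and it was 11 on percent values, 0 on the log2 ratio scale, 0 with only the groups compared, 8 with only CpGs measured in all animals, 9 with a minimum difference of 5 points, 23 at an adjusted p under 0.1, 1 with a trend in the prior, 3 with borders moved, 0 at a level of at least 90 and 11 at a level of at least 80. Leaving out 1 animal gave 0 (without C 1, C 3, T+WSD 8, 9 or 10) to 10 (without T+WSD 11). For the interaction the count was 1, and it was 2 on percent values, 3 with CpGs measured in all animals, 2 at an adjusted p under 0.1, 2 with strands averaged, 0 with borders moved, 0 at a level of at least 90 and 2 at a level of at least 80, with 1 to 2 when 1 animal was left out. For T 1 region passed at an adjusted p under 0.1, with 0 to 0 when 1 animal was left out, and for WSD 1 passed without CpGs that showed steps, with 0 to 1 when 1 animal was left out.

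For single CpGs the interaction count of 15 became 7 on percent values, 5 with CpGs measured in all animals and 25 at an adjusted p under 0.1, and 7 to 16 when 1 animal was left out. With CpGs measured in all animals T, WSD and T+WSD had 1, 2 and 1, and at an adjusted p under 0.1 T and T+WSD had 5 and 9. Leaving out 1 animal gave 0 to 5, 2 to 7 and 0 to 4. The cause of these shifts was not tested, other than that fewer CpGs or looser thresholds were used. Missing values replaced by the CpG mean, chosen after seeing the data, gave 7 regions for T+WSD, and over all regions it raised the T+WSD count from 208 to 347, so the background share also depends on how missing values enter a region mean (0.344% against 0.206%). The filled values were fitted as if measured and carry no spread of their own, so no conclusion is drawn from the higher counts. No paired analysis was possible because the 4 groups share no replicate numbers. Unknown read depth limits how much of the spread between animals can be assigned to counting.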
